A study of Homo sapiens with 4 samples.

Results

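Genes that drive the step from dividing progenitor to neuron were read in neuroblastoma cells after NeuroD1 knockdown. They are NEUROD1, NEUROD2, NEUROD4, NEUROD6, NEUROG2, NHLH1 and NHLH2, which encode basic helix-loop-helix (bHLH) transcription factors, and INSM1 and MYT1, which encode zinc finger transcription factors of the same developmental programme. These 9 genes, of 60612 in the count table, were taken by name. The members were chosen by name with their counts in knockdown and control cells already known from this comparison, so those values are given as a description and carry no test.

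The cells were IMR-32, an established human neuroblastoma line with amplified MYCN. RNA was sequenced in 2 groups of 2 libraries each, named shControl and shNeuroD1. By the group names and the study's figure legends, both groups carried a stably transduced, doxycycline-inducible short hairpin RNA (shRNA). Both had received doxycycline at 1 µg/mL for 48 h. The legends name the hairpin in shControl as shNC, a negative control, which the methods describe as scrambled. The study's text, however, calls the cells compared with the knockdown parental, and the labels enter the genotype of shControl as WT. If these cells carried no hairpin, effects of carrying one cannot be told apart from the loss of NEUROD1. In shNeuroD1 the hairpin was directed at NEUROD1. The labels do not say which of the study's 2 hairpins (shND1-1 or shND1-2) was used, and a supplementary table of the study heads both knockdown columns with the name of shND1-2, so effects of 1 hairpin on other transcripts cannot be told apart from the loss of NEUROD1. Whether the lines were pools or clones, and whether replicates were separate cultures, is not given in the sources used here, so p-values measure the spread between these libraries, which may be technical.

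bHLH factors of this kind (class II) bind DNA as pairs with a widely expressed E protein (TCF3, TCF4 or TCF12) at a short motif called the E-box, CANNTG. In the developing nervous system NEUROG2 acts early, in progenitors, and switches on later factors such as NEUROD1, NEUROD4 and the NHLH genes, which are found in young neurons. ID proteins, which lack the DNA-binding region, take up E proteins, while HES and HEY repressors act against the proneural factors. INSM1 is a repressor found in neuroendocrine and newborn neuronal cells, and MYT1 assists proneural factors during neuronal commitment. Neuroblastoma arises from the sympathetic branch of the neural crest, where HAND2 is among the classical regulators.

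Sequence before the start of transcription is shown first, since NeuroD and Neurogenin proteins prefer one form of E-box, CAGATG, which reads as its reverse complement CATCTG on the opposite strand. It was searched on both strands in the 250 bases before each RefSeq start (GRCh38.p14). 8 of the 9 members matched the RefSeq promoter table, with 9 windows, and INSM1 did not. CAGATG stood before NEUROD2, NEUROD6, NHLH1 and NHLH2, which is 4 of 8 members. Among all 27305 genes in that table, 14.6% had it. A second form, CAGCTG, which reads alike on both strands, stood before NEUROD4 and NHLH2 (2 of 8 members, against 16.7% of all genes). Any CANNTG, which includes both forms, was found before 5 of 8 members and before 66.7% of all genes. These letters were not in the windows of NEUROD1, NEUROG2 and MYT1. The following stretches of 30 bases are those with the 2 named forms, printed 5′ to 3′ on the strand of the gene, with the E-box in capitals. No form was common to all members, and a match is a description of letters only.
NHLH1, chr1:160366849-160366878, plus strand, motif 210 bases before the start: atgcatggagaaCAGATGtccctgctcccc
NHLH2, chr1:115841246-115841275, minus strand, motif 137 bases before the first start: cccacactgtgaCAGATGtcaagtccaatt
NHLH2, chr1:115840764-115840793, minus strand, motif 78 bases before the second start: ctggggagatatCAGCTGaacaaagcctta
NEUROD2, chr17:39608041-39608070, minus strand, motif 138 bases before the start: agtagagagtgaCAGATGgcggcgggtccc
NEUROD4, chr12:55019916-55019945, plus strand, motif 46 bases before the start: ctcctccctggtCAGCTGggagagcaatca
NEUROD6, chr7:31340824-31340853, minus strand, motif 115 bases before the start: ttacagggatgcCAGATGatcagtgcagaa
NEUROD6, chr7:31340751-31340780, minus strand, motif 42 bases before the start: tgacgtcactagCAGATGgcatgggtacca
All but the NHLH1 stretch also overlap an exon of the same gene in GENCODE 29, because that annotation holds transcripts that begin further upstream.

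NHLH1 kept the smallest share of its control level but for NEUROD2. A longer stretch of its upstream sequence, with no base in an annotated exon of the gene, is therefore given. It covers chr1:160366821-160367060 (GRCh38.p14, plus strand), from 250 to 11 bases before the start, with the CAGATG in capitals.
NHLH1 upstream: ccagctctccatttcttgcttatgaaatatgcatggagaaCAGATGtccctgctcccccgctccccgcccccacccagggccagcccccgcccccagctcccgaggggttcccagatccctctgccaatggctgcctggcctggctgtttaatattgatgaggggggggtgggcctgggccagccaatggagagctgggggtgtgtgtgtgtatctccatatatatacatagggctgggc

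Libraries held 14665210 to 16482463 counts, with 26071 to 27121 genes detected in each. The replicates of a group differed by more than counting noise (chi-square per degree of freedom 2.53 for shControl and 1.56 for shNeuroD1), so they were kept as separate libraries. Levels are given as CPM, counts scaled to a library of 1000000 after TMM normalization. Of the sympathetic neuroblast markers, HAND2 had 10812 to 12452 counts, PHOX2A 2100 to 2178, GATA3 2114 to 3326 and ISL1 496 to 872 across the libraries, while TH (10, 20, 88 and 79 counts) and DBH (23, 24, 12 and 11 counts) were scarce. Markers of other cells were at low levels, apart from COL1A1 and SNAI2. Mesenchymal genes did not share a direction. COL1A1 (513, 591, 291 and 279 counts) and SNAI2 (241, 241, 155 and 177 counts) made up most of their sum of 51.1 and 53.1 CPM in shControl and 30.2 and 31.2 CPM in shNeuroD1. COL3A1, at 0, 2, 15 and 18 counts, was the only one called, and was higher in shNeuroD1 (edgeR adjusted p = 6.3e-05). It passed the filter on low counts through the shNeuroD1 libraries alone, so the filter favoured a higher call. PRRX1 was at 0 counts. Of the Schwann genes, SOX10 had 8, 17, 15 and 12 counts and S100B had 23, 3, 25 and 31 counts. Immune genes stayed at or under 0.656 CPM in every library.

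NEUROD1 itself, the target of the hairpin, was read first (ENSG00000162992, chr2:181673088-181680876, minus strand, hg38). Its shControl libraries held 6174 and 6582 counts, and its shNeuroD1 libraries 969 and 886 counts. On the CPM scale, that is 418 and 414 CPM against 63.6 and 58.1 CPM. The groups lay far apart, and the replicates of each group were close. The mean went from 416 ± 3.12 CPM (SD, n = 2) to 60.8 ± 3.89 CPM (SD, n = 2), or 14.6% of control, a log2 fold change of -2.77 (SE 0.0504). These values went with the group names of the 4 libraries, which is a description and not a test of the labels. Of the 17537 genes that passed the count filter, 85 had a lower log2 fold change than NEUROD1. In bulk RNA, fewer cells expressing a gene and less RNA per cell cannot be told apart.

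CERKL, the ceramide kinase-like gene, lies on the same strand and overlaps NEUROD1, sharing 236 exon bases with it (chr2:181536676-181680665). It had 813 and 864 counts in shControl and 221 and 236 counts in shNeuroD1 (log2 fold change -1.87, SE 0.0827, adjusted p = 7.7e-19, edgeR quasi-likelihood test with Benjamini-Hochberg adjustment). How reads in the shared exon were given to the 2 genes is not stated in the sources used here, so the size of the change is uncertain for both, while the counts of CERKL were well below those of NEUROD1 in every library.

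Over the whole set, 8 of the 9 genes had a count in every library, NEUROD4 was without counts in 1, and no member was absent from all. 8 of the 9 passed the filter on low counts, and NEUROD6 did not. NEUROD2 and NEUROD4 passed it through the shControl libraries alone, where they were high. Genes are called here when the adjusted p is below 0.05 and the log2 fold change lies beyond 1 in either direction. 6 members were lower by both thresholds in shNeuroD1 (NEUROD1, NEUROD2, NEUROD4, NEUROG2, NHLH1 and INSM1). Of all genes tested, 5.14% were called lower and 8.79% were called higher. No member was called higher, and NHLH2 and MYT1 were not called. The shNeuroD1 libraries both lay below both shControl libraries for 8 of the 9 members, as they did for 37.7% of all genes tested. MYT1 was the exception in these counts, with both libraries above, as for 38.3% of all genes tested. Since the members were chosen with these differences in view, nothing is read from these counts.

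**Figure D1:**
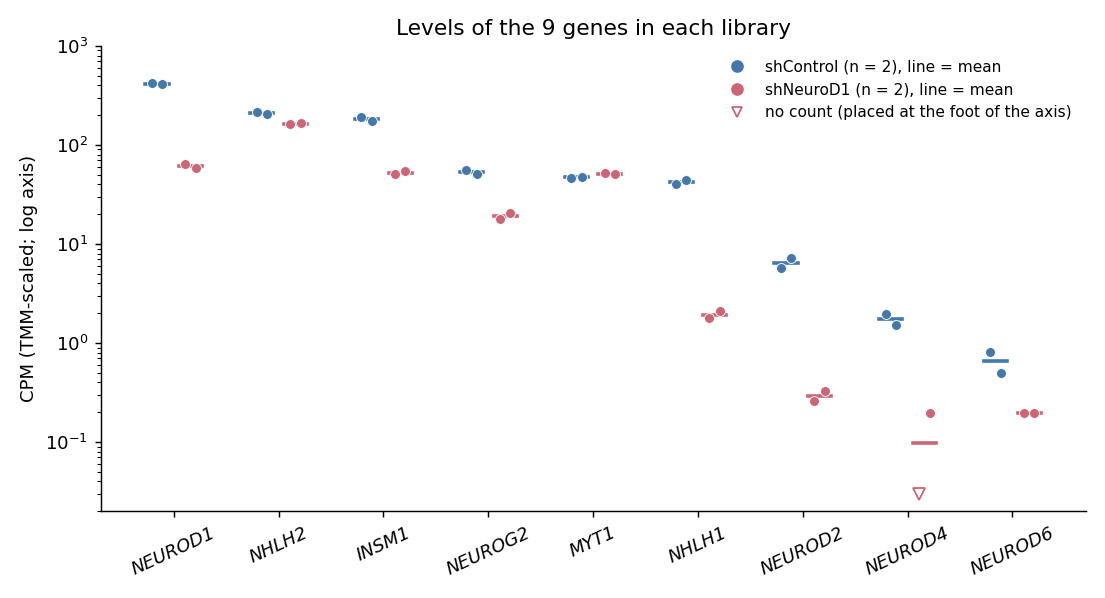
CPM (TMM-scaled, log axis) of the 9 genes in each of the 4 libraries. Points are libraries (blue for shControl, red for shNeuroD1, n = 2 each), short lines are group means, and the open triangle marks the NEUROD4 library with no count. Red points lie below blue points for every gene but MYT1, by the most for NHLH1, NEUROD2 and NEUROD4.

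The other NEUROD genes, paralogs of NEUROD1 that act in differentiating neurons, were present at far lower levels. NEUROD2 (ENSG00000171532, chr17:39603536-39609777, minus strand), known for its part in cortical and cerebellar neuron maturation, had 85 and 115 counts in shControl and 4 and 5 counts in shNeuroD1. The mean went from 6.49 ± 1.04 to 0.295 ± 0.0462 CPM (SD, n = 2), a log2 fold change of -4.43 (SE 0.348). From the pooled counts the level was 4.52% of control, with an exact 95% interval of 2.04% to 8.76% that covers counting error only. Of all tested genes 19 had a lower fold change.

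NEUROD4, which acts with NEUROD1 in retina, midbrain and hindbrain neurons, was near the limit of detection (ENSG00000123307, chr12:55019945-55030014, plus strand). It had 29 and 24 counts in shControl and 0 and 3 counts in shNeuroD1, which is 1.96 and 1.51 CPM against 0 and 0.197 CPM. A count of 0 allows up to 0.197 CPM in that library (3 counts). The pooled ratio was 5.69% of control with an exact 95% interval of 1.14% to 17.6%. The fitted log2 fold change was -4.03 (SE 0.653). It moved between -7.73 and -3.09 when 1 library was left out, the extremes being the 2 fits that kept a single shNeuroD1 library, so its size is poorly fixed. The call itself was lost without shControl replicate 1.

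NEUROD6, a marker of excitatory cortical neurons, was the scarcest member (ENSG00000164600, chr7:31337461-31340894, minus strand). It had 12 and 8 counts in shControl and 3 and 3 counts in shNeuroD1. These are 0.813 and 0.503 CPM against 0.197 CPM in both shNeuroD1 libraries. The pooled ratio was 30.2% of control, and its exact 95% interval of 9.91% to 77.9% shows how little these counts fix. The gene was not tested at this depth.

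NEUROG2, the Neurogenin that lies upstream of NEUROD1 in many neuronal lineages, was well detected (ENSG00000178403, chr4:112513516-112516172, minus strand). It had 817 and 809 counts in shControl and 272 and 316 counts in shNeuroD1. The mean went from 53.1 ± 3.17 to 19.3 ± 2.03 CPM (SD, n = 2), or 36.3% of control, with a log2 fold change of -1.46 (SE 0.0837). An antisense gene, NEUROG2-AS1, shares 92 exon bases with it and had 36, 52, 57 and 50 counts across the libraries. Since strand use in the counting is not stated, reads of the pair cannot be told apart in the shared bases. Its relatives were at or near 0, with NEUROG1 at a single count in 1 library and NEUROG3 at 0 counts.

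The NHLH pair stood apart from each other. NHLH1 and NHLH2 encode closely related bHLH proteins of young neurons that have left the cell cycle. NHLH1 (ENSG00000171786, chr1:160367067-160372848, plus strand) had 590 and 699 counts in shControl and 27 and 32 counts in shNeuroD1. That is 42.0 ± 2.81 CPM against 1.93 ± 0.230 CPM (SD, n = 2), or 4.61% of control, with a log2 fold change of -4.43 (SE 0.140). Of all tested genes 18 had a lower one. NHLH2 (ENSG00000177551, chr1:115836377-115843917, minus strand) had 3201 and 3252 counts in shControl and 2456 and 2526 counts in shNeuroD1. Its mean went from 210.6 ± 8.75 to 163.3 ± 3.13 CPM (SD, n = 2), which is 77.5% of control, with a log2 fold change of -0.37 (SE 0.0461). Both have the CAGATG form in the stretches given above, in NHLH2 before the first start only. Any link between that letter match and these levels was not tested.

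INSM1 and MYT1, both on chromosome 20, also differed from each other. INSM1 (ENSG00000173404, chr20:20368121-20370949, plus strand) had 2848 and 2798 counts in shControl and 775 and 831 counts in shNeuroD1. Its mean went from 184.4 ± 12 to 52.6 ± 2.56 CPM (SD, n = 2), or 28.5% of control, with a log2 fold change of -1.81 (SE 0.0569). MYT1 (ENSG00000196132, chr20:64102394-64242253, plus strand) had 688 and 752 counts in shControl and 800 and 768 counts in shNeuroD1. That is 46.9 ± 0.476 against 51.4 ± 1.52 CPM (SD, n = 2), or 109.5% of control, with a log2 fold change of 0.13 (SE 0.0659). Its fold change was negative (-0.27) when the deposited FPKM values of its transcript starts were used in place of counts, so no direction is given for it.

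**Figure D2:**
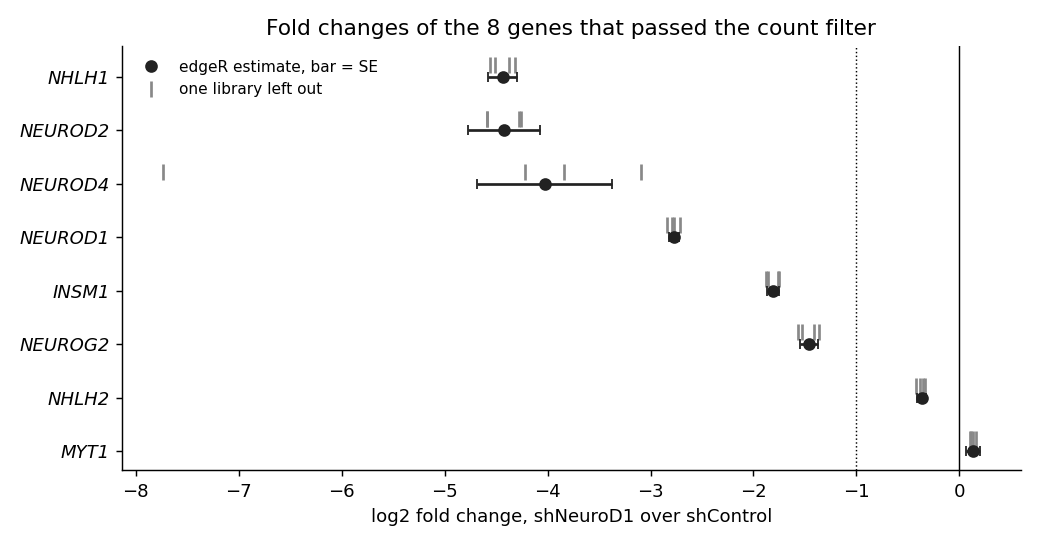
Log2 fold change of shNeuroD1 over shControl for the 8 genes that passed the count filter, from edgeR. Points are estimates with bars of 1 SE, grey ticks are the estimates with 1 library left out, and the dotted line marks a log2 fold change of -1. NHLH1, NEUROD2 and NEUROD4 lie near -4, NEUROD4 has ticks from -7.73 to -3.09, and MYT1 lies near 0.

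Dividing CPM by exon length (merged exons of GENCODE 29) allows the genes to be compared with each other. In shControl, NEUROD1 had the highest level of the members (126.3 and 124.9 CPM per kilobase). INSM1 was next (68.2 and 62.2 CPM per kilobase), and then came NHLH2, NEUROG2, NHLH1, MYT1, NEUROD2, NEUROD4 and NEUROD6. No neighbours in this order overlapped between their libraries. NHLH2 had a mean of 27.9 CPM per kilobase, NEUROG2 of 23.2, NHLH1 of 16.4 and MYT1 of 7.30, while the last 3 ranged from 1.04 down to 0.309 CPM per kilobase. The group is thus led in control cells by NEUROD1 and INSM1, with the other NEUROD genes at its foot.

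In shNeuroD1 the order was different. NHLH2 came first, with 21.4 and 21.9 CPM per kilobase. INSM1 (mean 18.6 CPM per kilobase) and NEUROD1 (18.4) came next, and their libraries overlapped, so their order is not fixed. NEUROG2 (8.43) and MYT1 (8.0) overlapped in the same way. NHLH1 was at a mean level of 0.755 CPM per kilobase, below MYT1, and NEUROD6, NEUROD2 and NEUROD4 were at or under 0.0923 CPM per kilobase. The summed level of the 9 genes was 272.0 and 262.7 CPM per kilobase in shControl and 75.3 and 76.6 CPM per kilobase in shNeuroD1. NEUROD1 made up 46.4% and 47.6% of that sum in shControl and 25.5% and 22.9% in shNeuroD1. NHLH2 made up 10.6% and 10.3% in shControl and 28.4% and 28.6% in shNeuroD1.

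**Figure D3:**
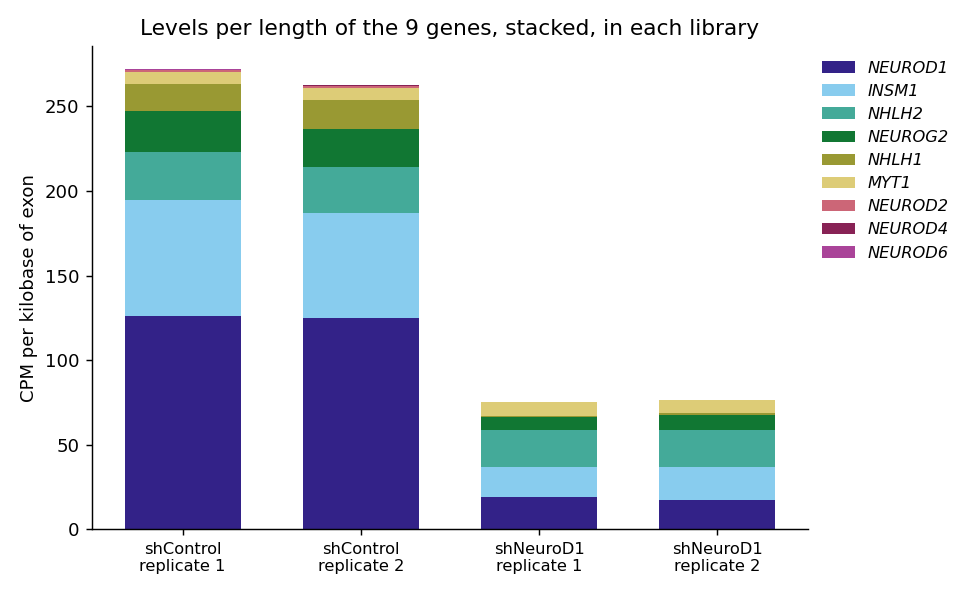
Levels per length (CPM per kilobase of exon) of the 9 genes, stacked, in each library. The bars reach 272.0 and 262.7 in shControl and 75.3 and 76.6 in shNeuroD1, and the NEUROD1 and INSM1 segments account for most of the shControl bars.

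Deposited values of transcript events, in FPKM, gave another view of a few members in the same libraries. They list starts, ends and alternative pieces of assembled transcripts. NHLH1 had a single end, at 11.2 and 11.8 FPKM in shControl and 0.787 and 0.367 FPKM in shNeuroD1. Its 2 listed forms of the first exon share 1 start, and the shorter was at 10.1 and 11.8 FPKM in shControl and at 0.367 FPKM in 1 shNeuroD1 library, while it was not listed in the other. NHLH2 had 1 listed end, at 53.9, 51.4, 41.4 and 43.1 FPKM in the order of the libraries above. NEUROD4 was listed in 1 shControl library only, at 0.335 FPKM. NEUROD2, NEUROD6, NEUROG2 and INSM1 had no listed events. For NEUROD1 the assembly merged the gene with CERKL, and 1 of the 61 events assigned to it lay inside its own gene model, so these values are not used for its level.

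MYT1 was the only member with many events inside its own model, 20 in all. Its main start, at position 64164452, was at 4.52 and 4.50 FPKM in shControl and 4.79 and 3.94 FPKM in shNeuroD1, and the groups overlapped. A start far upstream, at position 64102394, was at 0.546 and 0.401 FPKM in shControl and was not listed in either shNeuroD1 library. One exon began at either of 2 positions, 64218830 or 64218911. The first was at 0.652, 0.964, 4.63 and 0.745 FPKM and the second at 3.67, 3.94, 0.000296 and 4.76 FPKM, so shNeuroD1 replicate 1 differed from the other 3 libraries and the pattern did not follow the groups.

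Most of the remaining class II bHLH genes were silent or too scarce to test. Of 40 such genes, 16 had no counts and 13 passed the count filter. ATOH8 and BHLHE22 fell by both thresholds (5.14% of all genes tested did), ASCL5 was called higher (8.79% were), and 10 were not called. By the adjusted p alone 6 were lower and 2 higher, as were 4939 and 4698 of the 17537 genes. The median log2 fold change of the 13 was -0.13, beside 0.01 over all genes tested. ATOH8, an atonal relative, had 5061 and 5215 counts in shControl and 1349 and 1249 counts in shNeuroD1 (log2 fold change -1.98, SE 0.0492, edgeR adjusted p = 2.5e-25). BHLHE22, a repressor of the OLIG branch found in neurons, went from 274 and 304 counts to 26 and 26 (log2 fold change -3.46, SE 0.175, edgeR adjusted p = 2.5e-17). ASCL5 rested on 3, 6, 23 and 16 counts (log2 fold change 2.09, SE 0.532, edgeR adjusted p = 0.0012), and it passed the count filter through the shNeuroD1 libraries alone, so the filter favoured a higher call. With no filter it was still called (adjusted p = 0.015), and the call was lost with DESeq2 (adjusted p = 0.060) and without shControl replicate 1 or shNeuroD1 replicate 1.

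Among the other genes of this list, which were named after their values were seen, HAND2, a regulator of sympathetic neurons, was abundant in all 4 libraries, with 10812 to 12452 counts (log2 fold change -0.13, SE 0.0386, edgeR adjusted p = 0.0038). HAND1 and ATOH7 had libraries that overlapped between the groups.

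Partners and antagonists of the bHLH proteins were mostly not called. Of 15 listed genes 12 passed the count filter, with 9 not called, 1 called lower (5.14% of all genes tested were), 2 called higher (8.79% of all genes tested were) and a median log2 fold change of 0.13. By the adjusted p alone 5 were lower and 5 higher, as were 4939 and 4698 of the 17537 genes tested. TCF12, one of the 3 E proteins, had 7044 and 7805 counts in shControl and 3238 and 3317 counts in shNeuroD1 (log2 fold change -1.17, SE 0.0423, edgeR adjusted p = 3.8e-21). The other two E proteins had smaller changes in the same direction, at -0.90 (SE 0.0468, adjusted p = 4.95e-17) for TCF3 and -0.28 (SE 0.0426, adjusted p = 1.0e-06) for TCF4, from the same edgeR fit.

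Of the antagonists, the repressor genes HEY1 and HES7 rose. HEY1 went from 43 and 49 counts to 171 and 161 (log2 fold change 1.86, SE 0.179, edgeR adjusted p = 1.5e-10). HES7 went from 60 and 58 counts to 196 and 167 (log2 fold change 1.63, SE 0.169, edgeR adjusted p = 7.8e-10). The 4 ID genes did not share a direction. ID2 and ID3 had log2 fold changes of 0.69 and 0.90 and ID1 of -0.33, each with an edgeR adjusted p below the 0.05 threshold, while the libraries of ID4 overlapped between the groups. HES6, which unlike other HES genes favours neurogenesis, was lower (log2 fold change -0.92, SE 0.0769, edgeR adjusted p = 5.9e-12). With limma on the deposited FPKM values the call of HEY1 was lost (adjusted p = 0.11). Apart from TCF12, HEY1 and HES7, these genes were named after their values were seen.

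Further regulators of neurogenesis were read as a list of 35, of which 5 had no counts and 25 passed the filter. Of these, 2 were called lower (5.14% of all genes tested were), 3 higher (8.79% were) and 20 were not called. Their median log2 fold change was -0.09. By the adjusted p alone 9 were lower and 6 higher, as were 4939 and 4698 of the 17537 genes tested. CBFA2T3, a corepressor of the ETO family, went from 210 and 195 counts to 16 and 22 (log2 fold change -3.40, SE 0.213, edgeR adjusted p = 5.4e-15). POU4F2, a homeodomain factor of retinal ganglion and sensory neurons, was at 12 and 13 counts in shControl but 1 and 0 in shNeuroD1, called lower with an edgeR adjusted p = 1.4e-04. It passed the count filter through the shControl libraries alone, so the filter favoured a lower call, and it fell below the filter when either shControl library was left out. With no filter it was still called (adjusted p = 0.0080). Its pooled ratio was 4.02% of control with an exact 95% interval of 0.0980% to 24.6%.

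The 3 called higher were EBF4, DLL1 and TBR1. EBF4, of the early B-cell factor family, went from 88 and 94 counts to 222 and 223 (log2 fold change 1.30, SE 0.142, edgeR adjusted p = 2.4e-09). DLL1, a Notch ligand that proneural factors induce in progenitors, went from 18 and 15 counts to 35 and 37 (log2 fold change 1.13, SE 0.346, edgeR adjusted p = 0.0064). TBR1, of the T-box family, rested on 1, 8, 13 and 16 counts (log2 fold change 1.67, SE 0.597, edgeR adjusted p = 0.018). It passed the count filter through the shNeuroD1 libraries alone, and its log2 fold change was 0.90 without shControl replicate 1 and 3.65 without shControl replicate 2, so neither its call nor its size is fixed. The calls of DLL1 and TBR1 were lost with DESeq2 (adjusted p = 0.13 and 0.22), that of DLL1 also without shControl replicate 2, and that of TBR1 with no count filter and without shControl replicate 1, shNeuroD1 replicate 1 or shNeuroD1 replicate 2. EBF4 was not called with limma on FPKM (adjusted p = 0.15 and 0.17 with pseudocounts of 1 and 0.1).

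The nearest relatives of INSM1 and MYT1 in this list were named after their values were seen. INSM2 had 91 and 109 counts in shControl and 102 and 108 counts in shNeuroD1, and the groups overlapped. MYT1L, a repressor of non-neuronal genes, had 613 and 667 counts in shControl and 1096 and 1188 counts in shNeuroD1 (log2 fold change 0.84, SE 0.0641, edgeR adjusted p = 6.7e-13).

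**Figure D4:**
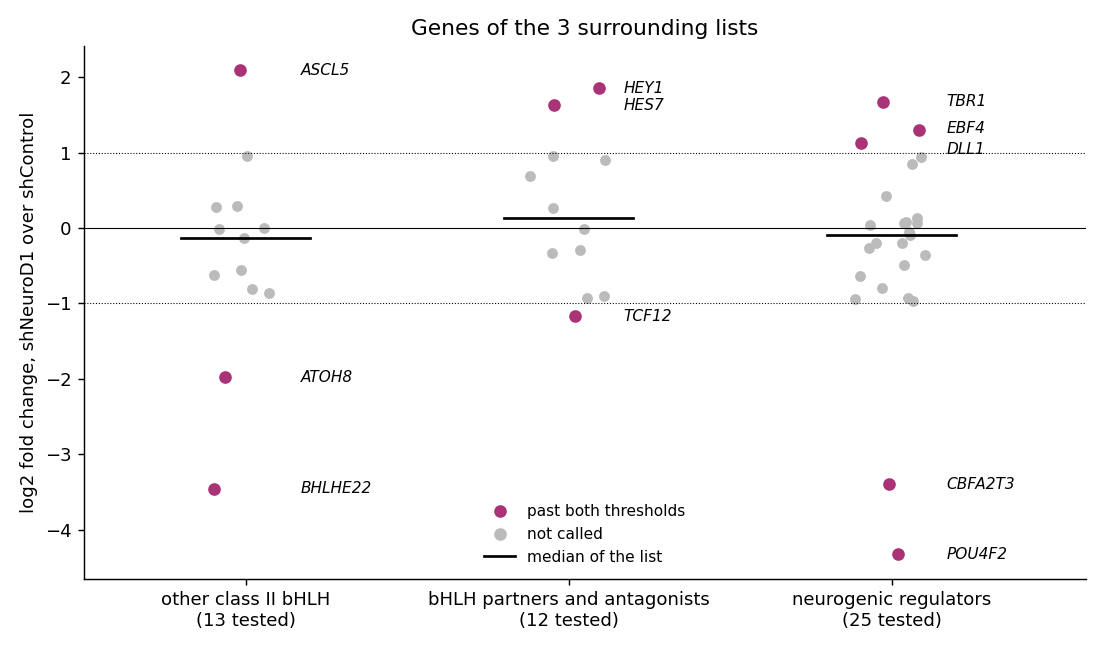
Log2 fold changes of shNeuroD1 over shControl for the tested genes of 3 lists: 13 other class II bHLH genes, 12 bHLH partners and antagonists, and 25 neurogenic regulators. Each point is a gene, purple points passed both thresholds and are named, and the bars are medians (-0.13, 0.13 and -0.09), with most genes between the dotted lines at -1 and 1.

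The genes most like NEUROD1 across the libraries were found by the Euclidean distance between centred log2 CPM values over the 4 libraries, among the 10549 genes whose mean over the libraries was 10 CPM or more. The 5 nearest were ESRRG (distance 0.0327), LINC01916 (0.131), GJA1 (0.150), IGFBP5 (0.194) and EYA2 (0.212). ESRRG, an orphan nuclear receptor, had 1871, 1964, 288 and 260 counts and a log2 fold change of -2.80. GJA1, the gap junction protein connexin 43, had 726, 843, 131 and 116 counts. IGFBP5, a binding protein of insulin-like growth factors, was at a level like that of NEUROD1 in CPM, with 484 and 520 CPM in shControl and 67.7 and 62.2 CPM in shNeuroD1. With 4 libraries in 2 groups, this likeness is mostly one of the size of the group difference, and none of the 5 is a member.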

How the data were processed

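Poly(A) RNA of 4 IMR-32 libraries was analysed. Per the labels and the study's methods, the authors trimmed reads with cutadapt 1.9.1, aligned them to hg38 with HISAT2 2.0.1 and made raw gene counts with HTSeq 0.6.1; annotation release and strand setting are not given in the sources used here. The deposited FPKM values list transcript events per library, and their software is not given either. The count table paired 60588 of 60612 identifiers with a symbol, and 58394 had coordinates in GENCODE 29. Columns of the authors' own comparison, fold changes and p-values, were not used.

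Counts were analysed with edgeR 4.0.16 (R 4.3.3), with filterByExpr at a minimum count of 10, TMM factors, the quasi-likelihood test and Benjamini-Hochberg adjustment over 17537 genes. The groups were fitted without a block. The SE is the log2 fold change divided by the root of F. Simulated data with known changes were recovered before use. Libraries of 14665210 to 16482463 counts put 3 counts at 0.189 to 0.203 CPM. Intervals and floors cover counting error only. DESeq2 1.42.0 and limma 3.58.1 (log2(FPKM + 1), genes averaging 1 FPKM or more over summed starts) were alternatives. The members and the gene lists were chosen with earlier results of these data known. Named genes are the 9 members, CERKL, up to 5 called genes per list and direction, the 5 genes nearest to NEUROD1, and those said to be named after their values were seen. Some genes of the marker and gene lists are not reported here.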

Additional observations from a re-analysis of the deposited data

How the results depend on the processing

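The log2 fold change of NEUROD1 was -2.66 with library size alone, without TMM factors, and between -2.84 and -2.71 when 1 library was left out. Library size alone moved the median of all genes from 0.01 to 0.12, and NHLH2 then stood at -0.25 and MYT1 at 0.24. MYT1 was negative with limma on FPKM (-0.27 with a pseudocount of 1, -0.32 with 0.1). NEUROD1 was left out of those FPKM fits, in which 2 members had a value (NHLH1 and MYT1) and 1 was called lower. With pseudocounts of 1 and 0.1, 201 and 206 genes were called lower and 186 and 174 higher among 10083 genes, with 1 other class II bHLH gene called lower and 0 higher, 0 neurogenic regulators called in either direction, and 0 partners called higher. DESeq2 called 998 genes higher, 1 neurogenic regulator higher and 0 other class II bHLH genes higher. Library size alone called 4 partners and 2 other class II bHLH genes higher. No count filter gave 2 other class II bHLH genes higher, and a mean of at least 1 CPM gave 0, with 1 neurogenic regulator lower.

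Leaving out 1 library gave 1 to 2 partners called lower (2 without shControl replicate 2) and 2 to 4 neurogenic regulators called lower (4 without shNeuroD1 replicate 1). Such fits assume that the lone library of a group varies like the other group. They called 5 to 6 members lower, 750 to 901 genes lower and 1054 to 1337 higher. In the fits to counts of all libraries the same 6 members were called lower, except that NEUROD4 was missing with a mean of at least 1 CPM. Since the members were chosen with this comparison known, these calls and those under the other settings carry no test. NEUROD2 and NEUROD4 also passed the main count filter through the shControl libraries alone, so it favoured a lower call. The 18 other genes followed were the tested members apart from NEUROD1 and the genes called in the gene lists. CERKL and the genes nearest to NEUROD1 were not followed. Under the alternative settings 100 of 114 values were kept. For a member that means within the combined SD of its log2 CPM in both groups, and for a list gene the same call. Fits in which a gene fell below the filter gave no value, so such losses are not counted. With 1 library left out, 0 of 70 values changed sign.

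Same-numbered libraries did not deviate together (r = 0.0186 over 17537 genes). With 2 libraries per group this cannot tell whether same-numbered libraries were prepared together. With a replicate block NEUROD1 was at -2.77, 6 members were called lower, and 899 genes were called lower and 1511 higher. NEUROD6, NEUROD4 and POU4F2 are limited by depth, at 29 counts or fewer in a library.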

Other observations

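Some genes of the marker lists moved with the knockdown, and their part in the results above was not tested. TH, the first enzyme of catecholamine synthesis, went from 10 and 20 counts in shControl to 88 and 79 counts in shNeuroD1 (log2 fold change 2.48, SE 0.288, edgeR adjusted p = 8.3e-09), and it passed the count filter through the shNeuroD1 libraries alone. GATA3 was higher (log2 fold change 0.57, SE 0.0454, edgeR adjusted p = 1.9e-12). PHOX2A was at 2178 and 2151 counts in shControl and 2178 and 2100 counts in shNeuroD1, and the groups overlapped. SOX10, the defining regulator of Schwann cells, was at 8, 17, 15 and 12 counts. These genes were named after their values were seen.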
